A study of Homo sapiens with 9 samples.

Results

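The genes described here encode the non-collagen part of the extracellular matrix and the enzymes and inhibitors that remodel it. They are 41 genes, chosen by name from the 15983 in the count table: adhesive and matricellular glycoproteins, microfibril and elastic fibre proteins, proteoglycans, laminins and nidogens, proteases, and protease inhibitors with the collagen chaperone SERPINH1. All 41 had a row in the table. RNA was sequenced from KGN cells, a human line derived from a granulosa cell tumour and labelled wild type, serving here as a granulosa cell model that rests on 1 tumour-derived line, grown in medium with fetal bovine serum. Cells were fasted for 12 h and then kept for 72 h with solvent (control, 3 libraries), with 0.5 µg/ml insulin (the lower dose, 3 libraries) or with 1 µg/ml insulin (the higher dose, 3 libraries). Libraries are numbered within a group as in their titles. Since no label says whether replicates were separate cultures, p-values measure the spread between these libraries, which may be technical. The study asked how granulosa cells respond to a high insulin concentration.

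The extracellular matrix is a mesh of secreted proteins that holds cells in place, stores growth factors and passes mechanical cues through integrins. In the ovarian follicle, granulosa cells rest on a basement membrane built of laminin, collagen IV, nidogen and the heparan sulphate proteoglycan perlecan, and they secrete versican and other proteoglycans into the follicular fluid. Metalloproteinases and ADAMTS proteases cut this matrix during follicle growth and ovulation, and the tissue inhibitors of metalloproteinases (TIMPs) hold them in check.

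Library totals ran from 18965722 to 20446405 counts, and where a gene has 0 counts in the smallest library its level may still reach 3 counts, or 0.158 CPM (counts scaled to a common library size), a limit for counting error only. Of the 16 granulosa markers, 15 passed the filter on low counts, among them the transcription factors FOXL2 (9.0 ± 0.687), NR5A1 (20.1 ± 0.985) and GATA4 (38.3 ± 2.40), all in FPKM (fragments scaled by gene length and library size; SD, n = 9). Others of that list were low, with AMHR2, which did not pass, at 0.0978, NR5A2 at 0.108, INHA at 0.485, HSD17B1 at 0.571, and WT1, FSHR and CYP19A1 at 1.28 to 1.48 FPKM. Of the epithelial markers 8 of 11 passed the filter, and the list summed to 1155 to 1267 FPKM in control, 1168 to 1279.8 FPKM under the lower dose and 1213 to 1299.6 FPKM under the higher dose, most of it from the keratin KRT18 at 1172 FPKM, while EPCAM had 7 counts over all libraries. Of the endothelial markers 2 of 7 passed, with KDR at 3.13 FPKM, and PECAM1 had 53 counts. Of the blood and immune markers 3 of 9 passed, with CD68 at 34.0 and CD74 at 17.0 FPKM, and PTPRC had 322 counts. The summed level of the fibroblast and smooth muscle markers, of which 10 of 13 passed the filter and which include LUM and DCN of the genes described here, was 1792 to 1935 FPKM in control libraries, 1806 to 2113 FPKM under the lower dose and 1749 to 1873 FPKM under the higher dose. Most of that sum came from COL1A1 at 1524 FPKM and ACTA2 at 224 FPKM. THY1 and TAGLN stood at 42.9 and 26.2 FPKM, while MYH11, FAP and DES had 12, 29 and 40 counts over all libraries. The granulosa list summed to 125.8 to 135.2 FPKM in control, 127.4 to 135.0 under the lower dose and 128.1 to 136.6 under the higher dose. Over all genes, lower dose 1 differed from lower dose 2 and lower dose 3 by a chi-square per degree of freedom of 7.75 and 8.19, beside 2.17 between lower dose 2 and lower dose 3, and it was the highest of the 9 libraries for 16 of 39 tested members and for 19.8% of all tested genes.

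The 41 genes took a mean of 3.23% ± 0.0313 of all counts in control, 3.19% ± 0.132 at the lower dose and 3.15% ± 0.0206 at the higher dose (SD, n = 3 each). The highest share, 3.34%, belonged to lower dose 1, and the lowest, 3.10%, to lower dose 3, so the range within the lower dose spanned all other libraries. Levels of single genes differed widely, as the plot of FPKM by gene shows. Of the 41 genes, 12 had a mean FPKM of 100 or more, among 528 genes of the whole table, 7 had a mean under 1, and 4 were among the 100 genes of highest mean FPKM.

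**Figure D1:**
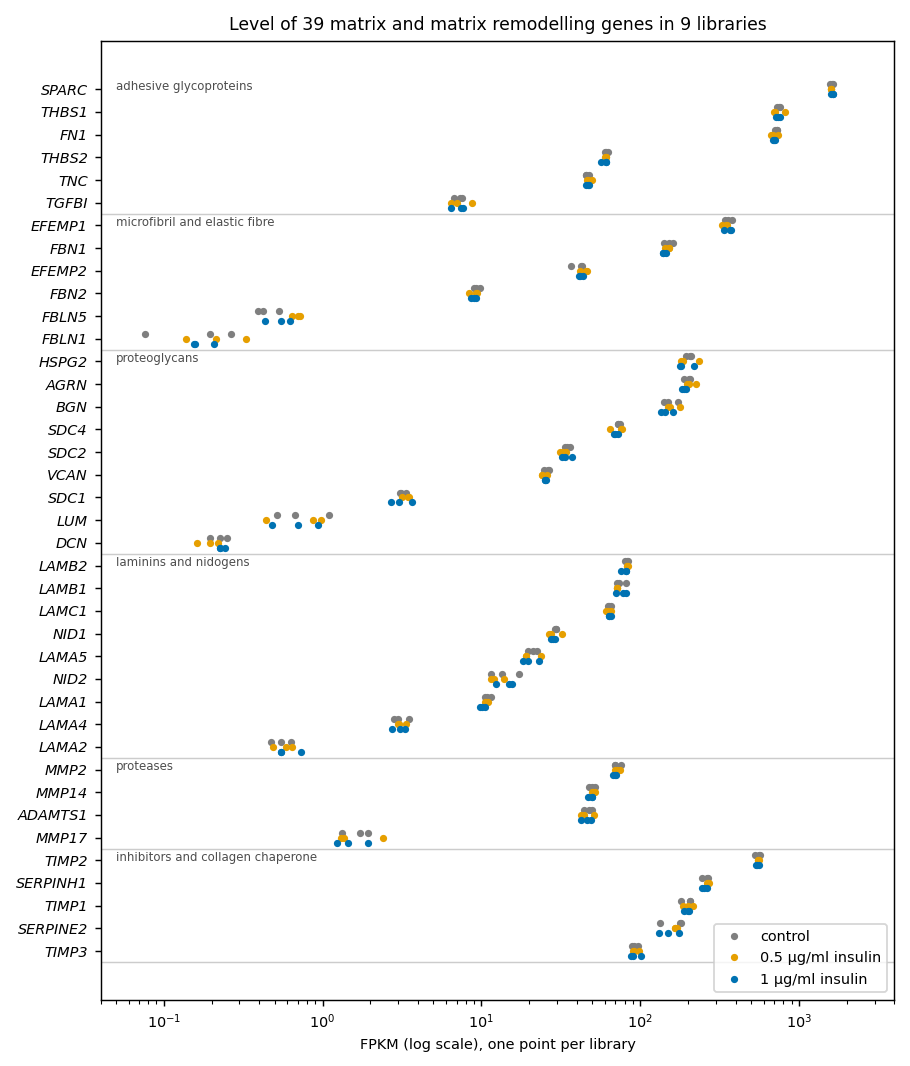
FPKM of 39 genes on a log axis, 1 point per library, with the 3 groups offset within each row and genes ordered by mean FPKM within each class (POSTN and ELN, at or near 0, are left out). The 3 groups lay on top of each other for most genes, and SPARC, at 1570.2 to 1652 FPKM, lay above all others.

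Among the adhesive and matricellular glycoproteins, SPARC, a collagen-binding protein that counters cell spreading, was the most abundant of the 41 genes at 1610.2 ± 29.4 FPKM (SD, n = 9). It was measured at 1570.2, 1612 and 1650.1 FPKM in control, 1606, 1587 and 1592 at the lower dose and 1588, 1652 and 1635 at the higher dose. The groups overlapped, and the library to library variation was small. THBS1, thrombospondin, which activates latent TGF-beta, was measured at 761, 749.7 and 726 FPKM in control, 821, 712 and 695 at the lower dose and 758, 740.5 and 715 at the higher dose, with its highest value in lower dose 1. FN1, fibronectin, a scaffold to which cells attach through integrins, stood next to THBS1 in level at 708 ± 22.7 FPKM (SD, n = 9), and THBS1 over FN1 was 1.05 ± 0.0307 (mean ± SD of the ratio, n = 9).

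The related THBS2 and tenascin C (TNC) were less abundant, at 60.7 ± 1.66 FPKM and 46.9 ± 1.38 FPKM, and TGFBI, a TGF-beta-induced adhesion protein, stood at 7.26 ± 0.714 FPKM (SD, n = 9 each). POSTN, periostin, had 1 count in control 3 and 0 in the other libraries, so it did not pass the filter and was not tested.

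The microfibril and elastic fibre genes were led by EFEMP1, a fibulin family member, which was measured at 345, 357 and 378 FPKM in control, 327, 350.0 and 352 at the lower dose and 337, 368 and 372 at the higher dose. Its values in lower dose 1 and control 3 were the lowest and the highest of the 9. FBN1, fibrillin, which forms the microfibrils on which elastin is laid down, was measured at 161, 152 and 142 FPKM in control, 143, 152 and 153 at the lower dose and 146, 139.7 and 139 at the higher dose. FBN1 exceeded the related fibrillin gene FBN2 by a factor of 16.3 ± 0.974, and EFEMP1 exceeded EFEMP2, which is needed for elastic fibre assembly, by a factor of 8.35 ± 0.861 (FPKM ratio, SD, n = 9 each).  ELN, elastin, had 0 counts in each control library, 2, 1 and 1 at the lower dose and 2, 2 and 1 at the higher dose, all below the floor of 3 counts per library, and was not tested. FBLN5 and FBLN1, fibulins that bind elastic fibres and basement membranes, passed the filter with 27 to 48 and 7 to 32 counts per library.

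Heparan sulphate proteoglycans of the basement membrane were the most abundant proteoglycans among the members, and other proteoglycans are not compared in level here. HSPG2, perlecan, was measured at 193, 206 and 208 FPKM in control, 235, 186 and 182 at the lower dose and 181, 179 and 219.6 at the higher dose, with lower dose 1 and higher dose 3 above the rest. AGRN, agrin, which links laminin to cell-surface receptors, was measured at 202, 206 and 189 FPKM in control, 224, 202 and 197 at the lower dose and 194, 188 and 185 at the higher dose. HSPG2 at 199 ± 19.6 FPKM and AGRN at 198 ± 11.9 FPKM did not differ beyond their spread (SD, n = 9 each). BGN, biglycan, a small leucine-rich proteoglycan, stood at 154 ± 13.9 FPKM, and the large chondroitin sulphate proteoglycan versican (VCAN), a follicular fluid component, at 25.3 ± 0.976 FPKM (SD, n = 9 each). The other small leucine-rich members, which bind and space collagen fibrils in fibroblasts, were scarce, with DCN, decorin, at 0.216 ± 0.0272 FPKM and LUM, lumican, at 0.742 ± 0.238 FPKM (SD, n = 9 each). The transmembrane syndecans, which act as co-receptors for growth factors and integrins, stood in the order SDC4 (72.0 ± 3.82 FPKM), SDC2 (34.0 ± 1.87 FPKM) and SDC1 (3.23 ± 0.298 FPKM; SD, n = 9 each), with no overlap between neighbours in any library.

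Laminins are trimers of an alpha, a beta and a gamma chain, and the alpha chain carries the main cell-binding sites. LAMB2 was measured at 80.1, 84.2 and 82.8 FPKM in control, 82.5, 83.9 and 82.7 at the lower dose and 76.1, 82.0 and 81.4 at the higher dose. LAMB1 was measured at 72.0, 73.9 and 82.0 FPKM in control, 71.7, 71.1 and 71.4 at the lower dose and 70.5, 77.7 and 81.6 at the higher dose. LAMB2 at the higher dose lay below the lower dose and overlapped with control, and LAMB1 at the lower dose lay just below control in FPKM, while in TMM-scaled CPM these groups overlapped. Across libraries the ranges of the beta chains overlapped, and LAMB2 over LAMB1 was 1.10 ± 0.0662 (FPKM ratio, SD, n = 9). LAMC1, the gamma chain, was the steadiest of the class at 63.9 ± 1.39 FPKM (SD, n = 9). The 4 alpha chains among the members summed to 35.0 ± 1.99 FPKM, below the 156 ± 5.62 FPKM of the member beta chains in each library, a ratio of beta to alpha of 4.48 ± 0.200 (SD, n = 9 each). LAMA3, an alpha chain outside the members with a mean of 11.2 CPM in control and 13.4 CPM at the higher dose, is not in this sum. Of the 4 member alpha chains LAMA5, a chain of mature epithelial basement membranes, was the highest at 20.7 ± 1.99 FPKM, followed by LAMA1, the chain of early embryonic basement membranes, at 10.6 ± 0.518 FPKM, LAMA4 at 3.09 ± 0.254 FPKM and the muscle and nerve chain LAMA2 at 0.577 ± 0.0814 FPKM (SD, n = 9 each). The nidogens, which bridge laminin and collagen IV, stood at 28.8 ± 1.65 FPKM for NID1 and 13.6 ± 2.01 FPKM for NID2 (SD, n = 9 each). For NID2, 29.96% of exon bases lie opposite exons of RTRAF, so where counting ignored strand their reads cannot be told apart.

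Among the members, each protease had a lower mean FPKM than each protease inhibitor, and other matrix proteases are not compared in level here. MMP2, a gelatinase that is secreted as an inactive precursor, was measured at 69.9, 75.9 and 69.7 FPKM in control, 75.2, 71.9 and 69.1 at the lower dose and 70.2, 67.5 and 69.3 at the higher dose. MMP14, the membrane-bound protease that activates it, was measured at 49.5, 52.2 and 47.4 FPKM in control, 51.8, 50.9 and 49.96 at the lower dose and 46.9, 49.5 and 49.5 at the higher dose. MMP2 overlapped between all groups, and MMP14 at the higher dose lay below the lower dose but overlapped with control. ADAMTS1, which cuts versican at ovulation in mice, stood at 46.5 ± 3.19 FPKM, and MMP17, a membrane-anchored member, at 1.63 ± 0.395 FPKM (SD, n = 9 each). TIMP2, which at the cell surface both inhibits MMP2 and joins the complex that activates it, was measured at 532, 567 and 565 FPKM in control, 564, 553 and 555 at the lower dose and 541, 546 and 561 at the higher dose. The sum of TIMP1, TIMP2 and TIMP3 exceeded the sum of MMP2, MMP14 and MMP17 by a factor of 6.92 ± 0.223 over the 9 libraries, with 6.87 ± 0.308 in control, 6.84 ± 0.250 at the lower dose and 7.05 ± 0.0560 at the higher dose (FPKM ratio, SD, n = 9 and n = 3 each). SERPINH1, an endoplasmic reticulum chaperone for procollagen, was measured at 265, 268 and 247 FPKM in control, 273, 265 and 268 at the lower dose and 253, 262 and 244 at the higher dose. TIMP1 stood at 199 ± 11.01 FPKM, the matrix-bound TIMP3 at 93.0 ± 4.79 FPKM, and SERPINE2, an inhibitor of thrombin and plasminogen activators, at 162 ± 19.0 FPKM (SD, n = 9 each). For TIMP2, 6.52% of exon bases lie opposite another gene.

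No member passed the test at either insulin dose. The filter on low counts kept 39 of the 41 genes among 12665 tested. The edgeR quasi-likelihood test, with p-values adjusted over the 12665 genes by Benjamini-Hochberg, called 0 of the 39 higher and 0 lower in each of the 3 comparisons (background 0% of 12665 genes each), and 0 in the test of any difference among the 3 groups. At an unadjusted p under 0.05 the members numbered 2 at the lower dose against control (background 6.08%), 1 at the higher dose against control (2.35%), 3 between the doses (5.64%) and 3 among the 3 groups (4.43%). DESeq2 without the count filter also called 0 of the members in each comparison. In these bulk samples, fewer cells expressing a gene and less RNA per cell cannot be told apart.

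Most intervals lay inside a narrow bound. The 95% interval of the fold change lay within 1.25-fold either way for 31 of 39 members at the lower dose (background 70.2%), for 33 at the higher dose (72.9%) and for 30 between the doses (70.6%). All 6 tested adhesive glycoproteins and all 4 of TIMP1, TIMP2, TIMP3 and SERPINH1 were inside that bound in each comparison. For SPARC the interval was 0.937- to 1.06-fold under the lower dose and 0.946- to 1.07-fold under the higher dose. For HSPG2 it was 0.887- to 1.13-fold and 0.843- to 1.07-fold in the same order. The widest intervals belonged to genes of few counts, where FBLN1 at the higher dose spanned 0.529- to 1.72-fold and LUM 0.578- to 1.46-fold. Both also varied more between libraries than the trend for genes of their level, with a biological coefficient of variation (the spread that edgeR estimates beyond counting noise) of 20.4% beside 14.6% for FBLN1 and 21.3% beside 13.2% for LUM.

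**Figure D2:**
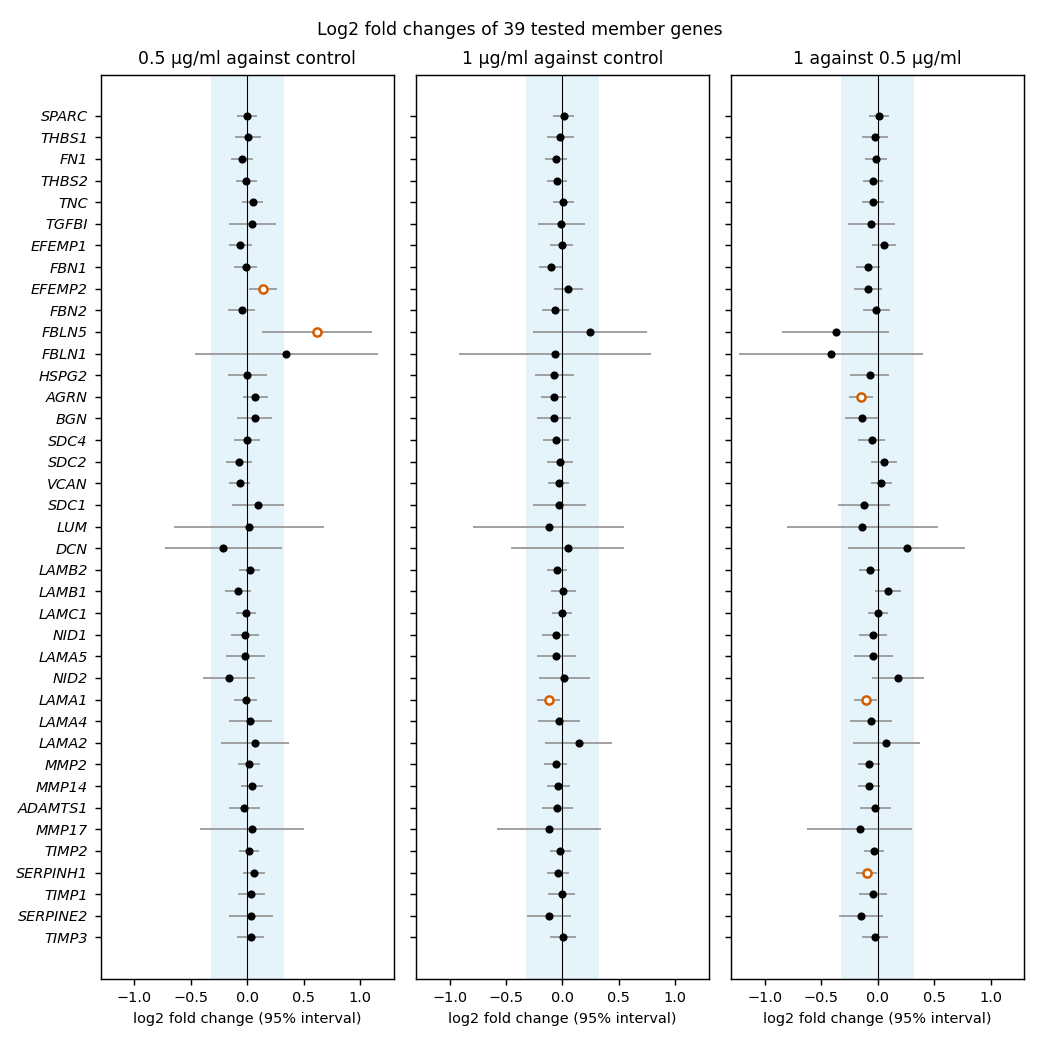
Log2 fold changes of the 39 tested genes with 95% intervals from the edgeR fit, for the lower dose against control, the higher dose against control and the higher against the lower dose, with the range of 1.25-fold either way shaded and open orange circles where the unadjusted p was under 0.05. Most intervals lay inside the shaded range, and the 5 widest in each comparison belonged to FBLN5, FBLN1, LUM, DCN and MMP17, with 150 counts or fewer in each library.

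At the lower dose, the members with an unadjusted p under 0.05 were both of the elastic fibre class. FBLN5, a fibulin that tethers elastic fibres to cells (chromosome 14, 91869412 to 91947987, hg38), was measured at 2.16, 2.42 and 2.36 CPM at the lower dose and 1.43, 1.78 and 1.32 CPM in control. All 3 values at the lower dose lay above all 3 in control. They stem from 43, 47 and 48 counts against 27, 36 and 27, and the log2 fold change was 0.62 ± 0.23 (SE), with an unadjusted p of 0.0159 which adjusted over all genes was 0.764 (edgeR quasi-likelihood test). At the higher dose FBLN5 stood at 1.45, 1.84 and 2.07 CPM, which overlapped with control, and the log2 fold change was 0.24 ± 0.24 (SE). EFEMP2 (chromosome 11, 65866441 to 65873592) was measured at 90.2, 88.4 and 81.7 CPM at the lower dose and 81.9, 83.3 and 71.3 CPM in control. Its groups overlapped, the log2 fold change was 0.14 ± 0.06 (SE) with an adjusted p of 0.792 (edgeR), and without control 3, the lowest library, it was 0.07. FBLN5 was the only tested member whose groups did not overlap upward at this dose (background 5.1%), and no tested member was free of overlap downward (5.61%).

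At the higher dose, LAMA1 (chromosome 18, 6941744 to 7117814) was the member of smallest p. It was measured at 100.8, 96.6 and 93.7 CPM at the higher dose and 111.3, 104.2 and 101.4 CPM in control. All 3 values at the higher dose lay below all 3 in control, and the log2 fold change was -0.12 ± 0.05 (SE), with an unadjusted p of 0.0240 which adjusted over all genes was 1.00 (edgeR quasi-likelihood test). Exons of other genes lie opposite 11.1% of the LAMA1 exon bases. FN1 and NID1 were the other members whose groups were free of overlap downward, which made 3 of 39 (background 3.92%), with 0 upward (background 3.81%), and their log2 fold changes of -0.06 ± 0.05 (SE) and -0.06 ± 0.06 (SE) had unadjusted p-values of 0.225 and 0.313 (edgeR). FBN1 was measured at 1687, 1618 and 1612 CPM at the higher dose and 1875, 1765 and 1639 CPM in control, where control 3 lay among the values of the higher dose. Its log2 fold change was -0.10 ± 0.05 (SE), and -0.05 without control 1.

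Fold changes below 0 outnumbered those above 0 at the higher dose. They were found in 30 of 39 members (background 50.2% of all tested genes, with 49.8% above 0). The median log2 fold change of the 39 members was -0.04 beside -0.00021 over all tested genes. By class they were 4 of 6 adhesive glycoproteins, 4 of 6 microfibril and elastic fibre genes, 8 of 9 proteoglycans, 6 of 9 laminins and nidogens, 4 of 4 proteases and 4 of 5 inhibitors and chaperone. At the lower dose they were 18 of 39 (background 48.1%, with 51.9% above 0), with a median of 0.01 beside 0.00447 over all tested genes. The median at the lower dose was -0.02 without lower dose 1. Both comparisons use the same control libraries. At the higher dose the median was -0.02 without control 2. Without higher dose 3 the count at the higher dose was 24 of 39. Of the 153 other matrix genes tested, 84 (54.9%) lay below 0 at the higher dose. That more of these members lay below control than above it at the higher dose was known from earlier results of these data, and no test over the members was made.

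Between the doses, AGRN (chromosome 1, 1020123 to 1056118) was the member of smallest p. It was measured at 1568, 1523 and 1497 CPM at the higher dose and 1835, 1646 and 1609.9 CPM at the lower dose. The groups did not overlap, lower dose 1 was the highest library, and control, at 1647, 1671 and 1526 CPM, overlapped with both doses. The log2 fold change of the higher against the lower dose was -0.15 ± 0.05 (SE), with an unadjusted p of 0.00966 which adjusted over all genes was 0.850 (edgeR quasi-likelihood test), and it was -0.09 without lower dose 1. SERPINH1 was measured at 647, 672 and 625 CPM at the higher dose and 707, 682 and 693 CPM at the lower dose, free of overlap, with a log2 fold change of -0.10 ± 0.05 (SE) and an adjusted p of 0.850 (edgeR). LAMA1 stood at 103.9, 106.8 and 103 CPM at the lower dose, above all 3 libraries of the higher dose, with a log2 fold change of -0.11 ± 0.05 (SE) and an adjusted p of 0.850 (edgeR). Groups were free of overlap downward for 6 members (background 6.31%), these 3 with FBLN5, LAMB2 and MMP14, and upward for DCN alone (5.85%). Fold changes below 0 were found in 30 of 39 members (background 50.5%), and in 22 without lower dose 1.

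No tested gene of 8 further lists passed the test either, as no gene of the whole table did. The lists held other glycoproteins, microfibril genes, proteoglycans and hyaluronan genes, basement membrane genes, proteases and protease inhibitors. They also held integrins and other receptors, and enzymes of heparan and chondroitin sulphate chains. Of their 228 genes 153 were tested, and edgeR called 0 in each comparison (background 0% of 12665 genes each). At the lower dose against control 7 lay above and 5 below 0 at an unadjusted p under 0.05 (background 2.87% and 3.21%), at the higher dose 3 and 3 (1.09% and 1.26%), and between the doses 6 and 19 (2.45% and 3.19%). List medians of the log2 fold change ran from -0.01 (integrins and other receptors) to 0.05 (protease inhibitors) at the lower dose, from -0.04 (proteases) to 0.02 (proteoglycans and hyaluronan genes) at the higher dose, and from -0.07 (basement membrane genes) to 0.01 (proteoglycans and hyaluronan genes) between the doses.

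Within these 8 lists, the smallest p at the lower dose and between the doses belonged to HS2ST1, which adds sulphate to heparan chains such as those of perlecan and the syndecans. It was measured at 49.98, 51.7 and 51.1 CPM at the lower dose and 56.3, 56.5 and 57.8 CPM in control, without overlap (log2 fold change -0.16 ± 0.05, SE, edgeR adjusted p = 0.764). At the higher dose it stood at 56.7, 60.02 and 59.5 CPM, above the lower dose in all 3 libraries (log2 fold change 0.21 ± 0.05, SE, edgeR adjusted p = 0.850). At the higher dose against control the smallest p within the lists belonged to CHST12, a chondroitin sulphotransferase, measured at 21.0, 21.2 and 20.3 CPM at the higher dose and 18.02, 17.73 and 17.69 CPM in control (log2 fold change 0.23 ± 0.08, SE, edgeR adjusted p = 1.00).

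The span of the 3 group means was smaller than the SD within groups for 22 of 39 members (56.4%), beside 51.7% of all tested genes. The biological coefficient of variation was at least 1.5 times the trend fitted for genes of the same level in 6 of 39 members and in 1.65% of all tested genes. These members were LUM, HSPG2, LAMA5, NID2, MMP17 and SERPINE2. For HSPG2 it was 7.28% beside a trend of 4.62%, for NID2 9.26% beside 5.05% and for SERPINE2 8.25% beside 4.59%. SPARC and LAMC1 were below their trend, at 3.89% and 3.90%. The bound of 1.5 times was chosen after the values were seen.

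**Figure D3:**
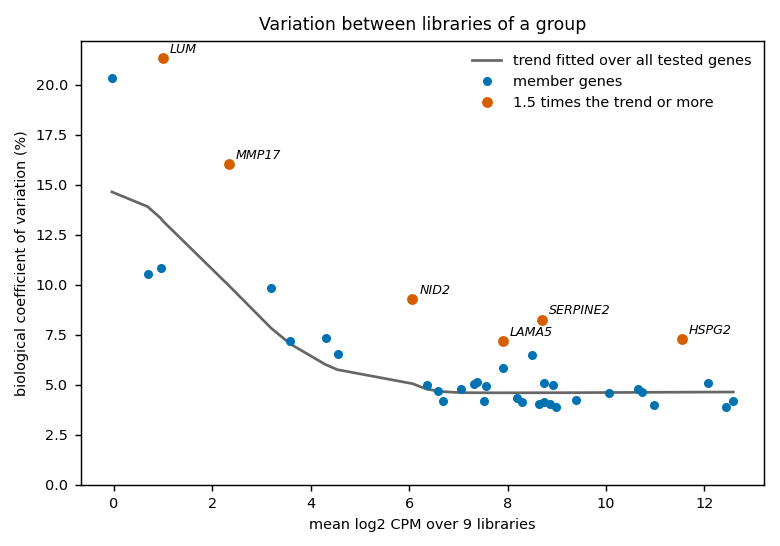
Biological coefficient of variation of each tested member against its mean log2 CPM over 9 libraries, with the trend that edgeR fitted over all tested genes as a line. The 6 members in orange lay at least 1.5 times above the trend, among them HSPG2 at 7.28% and NID2 at 9.26%.

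HSPG2 and LAMA5, both of which encode large proteins of the basement membrane, varied together. Relative to its mean over the 9 libraries, the log2 CPM of HSPG2 stood at -0.03, 0.06 and 0.07 in control, 0.26, -0.09 and -0.11 at the lower dose and -0.14, -0.15 and 0.14 at the higher dose. That of LAMA5 stood at -0.06, 0.03 and 0.11 in control, 0.22, -0.11 and -0.09 at the lower dose and -0.18, -0.08 and 0.16 at the higher dose. Lower dose 1 and higher dose 3 were the highest libraries for both genes. Over 741 pairs of members the Pearson correlation across 9 libraries had a median of 0.10, and 2 pairs passed at an adjusted exact permutation p under 0.05. The permutation shuffled the 9 libraries without regard to group or replicate number. A small p therefore does not separate a link between 2 genes from effects shared by whole libraries. No share over pairs of all tested genes is set beside the count of 2 pairs. HSPG2 with LAMA5 had r = 0.956 (exact permutation p = 0.000105, adjusted p = 0.0388) and Spearman rho = 0.883 (exact permutation p = 0.00308, adjusted p = 0.228), so the rank correlation did not pass. Without lower dose 1 and higher dose 3, the libraries farthest from the median of HSPG2, r was 0.889, and within groups it was 0.958. LAMA5, ADAMTS1, NID2 and SERPINE2 are described here because of these values. Of 12664 other tested genes LAMA5 had the highest r with HSPG2, 22 genes had an r over 0.9 with it, and HSPG2 ranked 3 among the genes by r with LAMA5.

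The other pair was THBS1 with ADAMTS1, which carries thrombospondin-type repeats, with r = 0.926 (exact permutation p = 3.03e-05, adjusted p = 0.0225) and rho = 0.967 (exact permutation p = 0.000165, adjusted p = 0.0613), so here too the rank correlation did not pass. Without lower dose 3 and lower dose 1 its r was 0.969, and within groups 0.933. THBS1 deviated by 0.04, 0.01 and -0.04 in control, 0.16, -0.05 and -0.09 at the lower dose and 0.02, -0.0056 and -0.06 at the higher dose. ADAMTS1 deviated by 0.11, 0.03 and -0.07 in control, 0.16, -0.06 and -0.11 at the lower dose and 0.07, -0.0053 and -0.13 at the higher dose. For both genes the highest library was lower dose 1, and both fell in the order of the replicate number within each group. In the order of r with THBS1, ADAMTS1 ranked 22 among all tested genes, of which 54 had an r over 0.9.

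NID2 and SERPINE2, both among the members above the trend of variation, are shown for comparison, and their correlation did not pass. It was r = -0.853 (exact permutation p = 0.00284, adjusted p = 0.140) with rho = -0.783 (exact permutation p = 0.0172, adjusted p = 0.360). Without control 1 and control 3 its r was -0.729, and within groups -0.859. The most negative r of all pairs, -0.934 for LAMB1 with SERPINE2, did not pass either (exact permutation p = 0.00277, adjusted p = 0.140). NID2 deviated by -0.23, 0.0051 and 0.35 in control, 0.06, -0.23 and -0.16 at the lower dose and -0.14, 0.15 and 0.20 at the higher dose. SERPINE2 deviated by 0.18, 0.16 and -0.27 in control, 0.06, 0.08 and 0.06 at the lower dose and 0.12, -0.11 and -0.29 at the higher dose. Control 3, higher dose 2 and higher dose 3 were the 3 highest libraries for NID2 and the 3 lowest for SERPINE2.

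Members that peaked in lower dose 1 differed in base composition. HSPG2, LAMA5, AGRN and MMP17 belong to the 1241 tested genes in the top 10% by transcript GC content, at 64.5%, 66.4%, 67.5% and 68.7% GC. The median gene of that 10% stood at 0.15 in lower dose 1, the highest library for HSPG2, LAMA5, AGRN and MMP17 alike, and between -0.05 and -0.00276 in the other 8 libraries. In higher dose 3, where HSPG2 and LAMA5 stood at 0.14 and 0.16, it stood at -0.03. THBS1 and ADAMTS1, at 45.6% and 48.6% GC, also had their highest value in lower dose 1, at 0.16 each. The median gene of the lowest 10% by GC content stood at -0.08 there. LUM and DCN, which belong to that lowest 10% and had few counts, stood at 0.30 and -0.36. For lower dose 1 the part of base composition in these values was not tested. HSPG2 has 11.7% of its exon bases opposite exons of LDLRAD2.

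**Figure D4:**
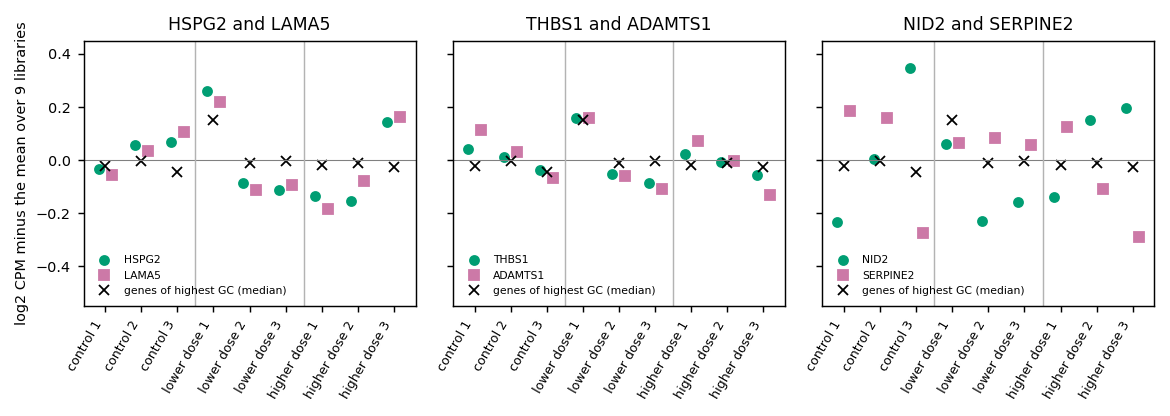
Log2 CPM minus the mean over 9 libraries for HSPG2 with LAMA5, THBS1 with ADAMTS1 and NID2 with SERPINE2, 1 mark per gene and library, with crosses for the median of the tested genes in the top 10% by GC content. The first pairs rise and fall together with a peak in lower dose 1, where the cross is at 0.15, and the last pair, whose correlation did not pass, lies on opposite sides of 0 in control 3 and higher dose 3.

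The 250 bases before the RefSeq transcription start (GRCh38.p14) are shown for HSPG2 and LAMA5, to set the promoters of genes that varied together side by side, and for THBS1 of the other pair. For ADAMTS1 none is shown. HSPG2 lies at chr1:21937311-21937560 on the minus strand, LAMA5 at chr20:62367313-62367562 on the minus strand and THBS1 at chr15:39580829-39581078 on the plus strand. Sequences read 5′ to 3′, and capitals mark GGGCGG on either strand, the core of the GC box bound by SP1.
HSPG2: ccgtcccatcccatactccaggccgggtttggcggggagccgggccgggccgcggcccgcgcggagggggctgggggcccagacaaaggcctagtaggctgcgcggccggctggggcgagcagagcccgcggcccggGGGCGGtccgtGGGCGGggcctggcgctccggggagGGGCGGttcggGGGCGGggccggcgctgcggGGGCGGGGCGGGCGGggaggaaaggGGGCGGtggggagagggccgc
LAMA5: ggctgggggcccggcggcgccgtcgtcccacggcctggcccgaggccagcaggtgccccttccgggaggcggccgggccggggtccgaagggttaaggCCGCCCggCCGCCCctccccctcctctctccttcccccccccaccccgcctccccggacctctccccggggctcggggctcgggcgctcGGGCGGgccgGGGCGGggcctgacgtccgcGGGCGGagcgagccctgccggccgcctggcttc
THBS1: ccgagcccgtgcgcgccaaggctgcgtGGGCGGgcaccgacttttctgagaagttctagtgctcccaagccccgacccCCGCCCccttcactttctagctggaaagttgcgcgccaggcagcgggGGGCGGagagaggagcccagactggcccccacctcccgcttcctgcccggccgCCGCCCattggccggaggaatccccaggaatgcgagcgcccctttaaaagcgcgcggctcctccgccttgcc
The windows are 82.8%, 82.8% and 69.6% GC. GGGCGG was found 8 times for HSPG2, with some matches overlapping, 5 times for LAMA5 and 4 times for THBS1, and in 42.6% of 35116 promoter windows of the same length. TGANTCA, the AP-1 motif, was found 0 times in each of the 3, and in 6.57% of all windows. A promoter entry was found for 30 of the 41 members, of which 23 hold GGGCGG and 1 holds TGANTCA. The 35116 windows are not limited to genes of the count table, so their share is no matched background for the members.

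**Figure D5:**
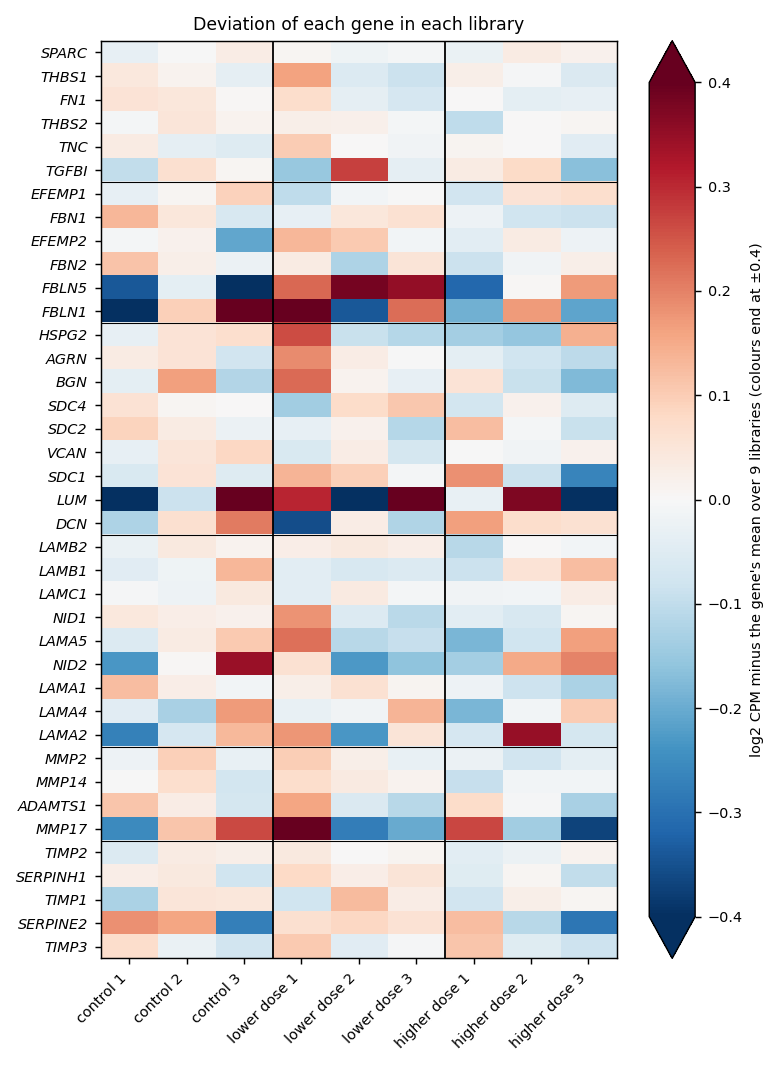
Log2 CPM of each tested member in each library minus the mean of that gene over 9 libraries, with genes grouped by class and libraries by group, and colours that end at 0.4 either way. Lower dose 1 holds the highest value of 16 of the 39 members, among them HSPG2, AGRN, BGN, LAMA5, THBS1 and ADAMTS1.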

How the data were processed

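RNA of KGN cells was sequenced in 9 libraries, 3 in each of 3 groups given by the labels. Whole-number read counts by gene symbol and FPKM of the same genes are the values the authors deposited. Trimmomatic, HTSeq and DESeq are named with the build hg38, without versions, per the submitters' processing notes; no source used here gives the aligner, annotation, strand setting or treatment of multiply matched reads. The deposited FPKM values are the deposited counts rescaled: the implied gene length was whole within 0.0001 for all 11053 genes whose counts reached 50 in each library. FPKM was used for levels between genes and counts for all tests.

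Counts were tested with edgeR 4.0.16 (R 4.3.3): filterByExpr (minimum count 10), which kept 12665 of 15983 genes, TMM normalization, a quasi-likelihood fit of all 3 groups, and Benjamini-Hochberg adjustment over all tested genes at 0.05. CPM uses TMM-scaled library sizes, and log2 CPM a prior count of 2. Correlations between members were tested by exact permutation over 9 libraries without regard to group, 2-sided, adjusted over all pairs. The fit was also run on simulated counts, and the outcome is not given here. These counts were drawn at the trend of variation, a smaller spread than that of the members above the trend. Gene positions and transcript GC come from GENCODE release 29 and promoters from RefSeq (GRCh38.p14).

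Alternatives were DESeq2 1.42.0, other normalization and filters, limma 3.58.1 on log2(FPKM + 1) and log2(FPKM + 0.1), a replicate block, the compared groups alone, and leaving out each library. Library totals ran from 18965722 to 20446405 counts, and floors cover counting error only. Values in every library are given for members with an unadjusted p under 0.05 in any comparison and for the 2 of highest mean FPKM in each class; members below the filter are given by their counts, and further ones that are described were chosen after their values were seen. The members and lists were chosen with earlier results of these data known.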

Additional observations from a re-analysis of the deposited data

How the results depend on the processing

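Of 298 values of 21 results recomputed under 17 alternatives, 286 kept their side of the threshold, stayed within 1.5 times of a count or moved by less than the spread between replicates, and 0 members were called under any of them. For medians that spread was 0.0302, so a median could change sign and still be among the 286. For single genes only the sign and the side of the threshold were compared, not the size of the fold change. Without the count filter, edgeR called 6 genes at the lower dose against control, 3 at the higher dose against control, 4 between the doses and 8 among the 3 groups, and DESeq2 called 1 among the 3 groups; none was a member, and the cause was not tested. Leaving out 1 library gave 0 to 1, 0 to 0, 0 to 2 and 0 to 3 called genes in the same order, with the highest counts between the doses and among the 3 groups without lower dose 1. The median log2 fold change of the members at the lower dose was 0.01 and ranged from -0.0155 without lower dose 1 to 0.0331 without lower dose 3; it was also below 0 without control 1 (-0.00188) and with limma on log2(FPKM + 0.1) (-0.00592), so its sign is not settled. At the higher dose it ranged from -0.0467 without control 1 to -0.0192 without control 2, and between the doses from -0.0691 without lower dose 3 to -0.0224 without lower dose 1. Members below 0 numbered 14 to 23 at the lower dose, 24 to 33 at the higher dose and 22 to 31 between the doses when 1 library was left out. The log2 fold change of FBLN5 at the lower dose was 0.22 on the log2(FPKM + 1) scale.

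Same-numbered libraries of different groups had correlations of their deviations from -0.0117 to 0.161, with 1 of 9 over 0.1. Correlations of differently numbered libraries are not given, so whether the numbers pair the libraries is not settled. Among members, ADAMTS1, THBS1 and TNC fell and EFEMP1 rose in the order of the replicate number within each group. TGFBI followed no such order, and no share over all tested genes is set beside these. With the replicate number as a block, 0 genes were called in each comparison. Genes at an unadjusted p under 0.05 numbered 971, 343 and 891, beside 770, 298 and 714 without the block (edgeR). The correlations of HSPG2 with LAMA5 and of THBS1 with ADAMTS1 were 0.978 and 0.923 with the block. That of EFEMP1 with ADAMTS1 went from -0.892 within groups to 0.0484. FBLN1 and LUM had few counts and a spread above the trend; which of these widened their intervals was not tested.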
